A study of Homo sapiens with 6 samples.

Results

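The levels of 46 genes of the interferon response were examined by polyA RNA-seq in A549, an established line of human lung adenocarcinoma cells. The 46 genes were chosen by name, as receptors, sensors, regulatory factors and products of the interferon response, among 58174 genes listed, and all 46 names were found. The choice was made with earlier results of these data known. Parental cells (Ctrl, 3 libraries) were set against cells whose MIR21 gene had been deleted with CRISPR/Cas9 (MIR21-KO, 3 libraries), all harvested 48 h after seeding. The comparison asked which transcripts differ in cells that lack miR-21-5p, an abundant small RNA with oncogenic functions. By the study's methods, knockout cells grew from sorted single cells that had received Cas9 and guide plasmids, and no such step is described for Ctrl cells. How many clones stand behind the 3 MIR21-KO libraries is not given in the sources used here, and transfection, sorting, clonal origin and loss of MIR21 cannot be told apart in this design. No interferon or virus is named in the labels, so levels in both groups are those of cells not knowingly stimulated.

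Type I interferons are secreted proteins that bind a receptor made of IFNAR1 and IFNAR2. Through the kinases JAK1 and TYK2, the receptor activates a complex that holds STAT2 and IRF9 and binds an element called ISRE in the promoters of interferon-stimulated genes. Many of the products block viral entry, translation or replication, and others, such as USP18, dampen the receptor again. In lung epithelium, the system is set off by sensors of foreign RNA and DNA, for example RIG-I (DDX58) and cGAS.

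Among the 46 genes, 8 rose and 1 fell in MIR21-KO cells. Among the 8, fold changes were highest for IFI44, TRIM22, OASL and SAMD9L, followed by IFI6, ISG15, IFITM2 and PARP9, and the receptor subunit IFNAR2 fell. The tested sensors, the regulatory factors and the synthetases OAS1 and OAS3 did not pass the test. Levels are given as FPKM (fragments scaled to gene length and library size), and fold changes as the difference of log2(FPKM + 0.1), MIR21-KO minus Ctrl, with standard error (SE). Fold changes of low genes are understated on this scale. A gene was tested where its mean was at least 0.5 FPKM, and called at a false discovery rate (FDR) under 0.01, obtained with limma and Benjamini-Hochberg adjustment over all 16006 tested genes. Of the 46 genes, 32 were tested and 14 lay below the filter. SAMD9L, IRF7 and IFITM1, with Ctrl means of 0.361, 0.443 and 0.148 FPKM, passed the filter only through their higher MIR21-KO levels. The counts and the median below include them. The 8 genes that rose were 25.0% of the 32, where 7.66% of all tested genes were called higher, and the 1 that fell compares with 8.38% called lower and 16.0% called in either direction. The median fold change of the 32 genes was 0.36 and that of all tested genes -0.02, with 22 of the 32 above 0. The groups did not overlap, with all MIR21-KO libraries on the upper side, for 18 of the 32, beside 22.8% of all tested genes, and on the lower side for 5, beside 25.2%. In bulk RNA, more cells that express a gene and more RNA per cell cannot be told apart.

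The 6 libraries held 10631667 to 14345209 reads, recovered from the FPKM steps as whole numbers for 100% of values within 0.01 read, so that for a length of 1 kb each read added 0.0731 to 0.0930 FPKM. Where a gene had no read, up to 3 reads could have been missed, which covers counting error only. MIR21 itself was listed at 0 in all 6 libraries, Ctrl included, so it did not check the labels, and VMP1, the gene it overlaps, rose (log2 fold change 0.92, SE 0.08, FDR 0.00047). Keratins marked all libraries as epithelial, with KRT8 at 352 to 499 FPKM, KRT7 at 442 to 639 FPKM and EPCAM at 0.389 to 1.65 FPKM. CDH1 (E-cadherin) fell from a mean of 8.18 to 2.86 FPKM. Of the 6 epithelial markers examined, 4 had fold changes below 0 and 2 above, with a median of -0.45. At an FDR under 0.01, 1 of the 6 was called lower (16.7%, beside 8.38% of all tested genes) and 0 higher. Of 7 markers of blood cells, CD3E and HBB were at 0 in all libraries, PTPRC had 2 reads in 1 library, CD68 had 0 to 8 reads, and CD14 was at 3.19 to 5.10 FPKM in all libraries. ITGAM had 34, 43 and 63 reads in Ctrl and 10, 17 and 23 in MIR21-KO libraries, and the part of such differences in the results was not tested. MIR21-KO libraries differed in a way that followed gene length. Among genes of up to 2495 bases, MIR21-KO replicate 1 lay above its 2 partners by a median of 0.21 on the log2 scale and replicate 3 below them by -0.18, and among genes from 5484 bases on the medians were -0.15 and 0.15. The Ctrl libraries lay within -0.07 and 0.08. Values with length and GC trends removed are given beside the results for IFI6, ISG15, IFITM2 and IFITM3 and where they change a call or a direction.

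Promoter sequences of the members were read next. The RefSeq promoter (GRCh38.p14, 250 bases before to 50 after a listed start) was found for 33 of the 46 genes. Among the called genes, none was found for OASL, TRIM22, IFITM2 and IFNAR2. Each promoter found was searched on both strands for the ISRE core (GAAA, any 2 bases, GAAA) and for the GAS core, TTCNNNGAA. Shown are the promoters with cores among the risen genes, ISG15 (chr1:1013247-1013546, plus strand), IFI6 (chr1:27672143-27672442, minus strand) and IFI44 (chr1:78649539-78649838, plus strand, first listed start). They are written 5′ to 3′ along the gene, with ISRE cores on either strand in capitals.
ISG15: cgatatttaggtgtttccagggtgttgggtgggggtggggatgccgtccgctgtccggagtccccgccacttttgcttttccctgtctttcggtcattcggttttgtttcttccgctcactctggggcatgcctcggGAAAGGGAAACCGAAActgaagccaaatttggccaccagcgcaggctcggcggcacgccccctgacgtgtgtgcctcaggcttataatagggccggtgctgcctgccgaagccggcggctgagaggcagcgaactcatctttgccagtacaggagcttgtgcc
IFI6: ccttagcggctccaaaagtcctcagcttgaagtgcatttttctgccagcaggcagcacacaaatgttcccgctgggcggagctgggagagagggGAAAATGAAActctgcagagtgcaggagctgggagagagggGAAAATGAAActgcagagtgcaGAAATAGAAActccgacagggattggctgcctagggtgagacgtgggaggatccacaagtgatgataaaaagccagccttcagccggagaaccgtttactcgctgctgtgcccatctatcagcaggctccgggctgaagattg
IFI44: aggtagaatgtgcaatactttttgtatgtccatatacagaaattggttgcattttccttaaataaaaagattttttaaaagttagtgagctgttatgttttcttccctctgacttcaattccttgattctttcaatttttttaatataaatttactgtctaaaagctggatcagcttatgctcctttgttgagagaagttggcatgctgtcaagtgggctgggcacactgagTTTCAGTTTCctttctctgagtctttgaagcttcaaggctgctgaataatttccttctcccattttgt
In ISG15, 2 overlapping cores began 113 and 107 bases before the start. IFI6 held 3 cores, 156, 115 and 93 bases before the start. The IFI44 core lies on the opposite strand and begins 18 bases before the first listed start.

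PARP9 and DTX3L are neighbors that point away from each other and are read from one shared region. A single ISRE core lay in the promoters of both genes. The window of 40 bases around it, chr3:122564317-122564356, is shown as read along each gene, with the core in capitals.
PARP9: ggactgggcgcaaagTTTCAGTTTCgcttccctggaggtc
DTX3L: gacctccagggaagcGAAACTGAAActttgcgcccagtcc
The core began 41 bases before the second listed start of PARP9 and 6 bases before that of DTX3L.

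An ISRE core was present in 22 of the 33 genes with a promoter, whereas it was found in 3.57% of all 35116 RefSeq promoters and in 4.38% of 27305 genes. A GAS core was present in 8 of the 33 genes, beside 7.66% of all promoters and 9.38% of genes. Of the 22 genes with an ISRE core, 14 were tested and 4 rose (IFI44, IFI6, ISG15 and PARP9), with a median fold change of 0.72 on the log2 scale. Of the 11 without one, 9 were tested and 1 rose (SAMD9L), with a median of 0.13. The risen genes OASL, TRIM22 and IFITM2 enter neither count, as no promoter was found for them. The 10 tested genes with a core that were not called included HERC5, with 3 cores, and OAS3, with 2. Over all tested genes, 388 of 14238 promoters held the core, those of the members included. Of the 388, 45 belonged to genes called higher and 25 to genes called lower. Of all tested genes, 7.66% were called higher and 8.38% lower. Promoters were counted here, so a gene with several listed starts can count more than once. The median fold change was -0.01 with or without the core. The presence of these letters is a description and does not show binding.

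**Figure D1:**
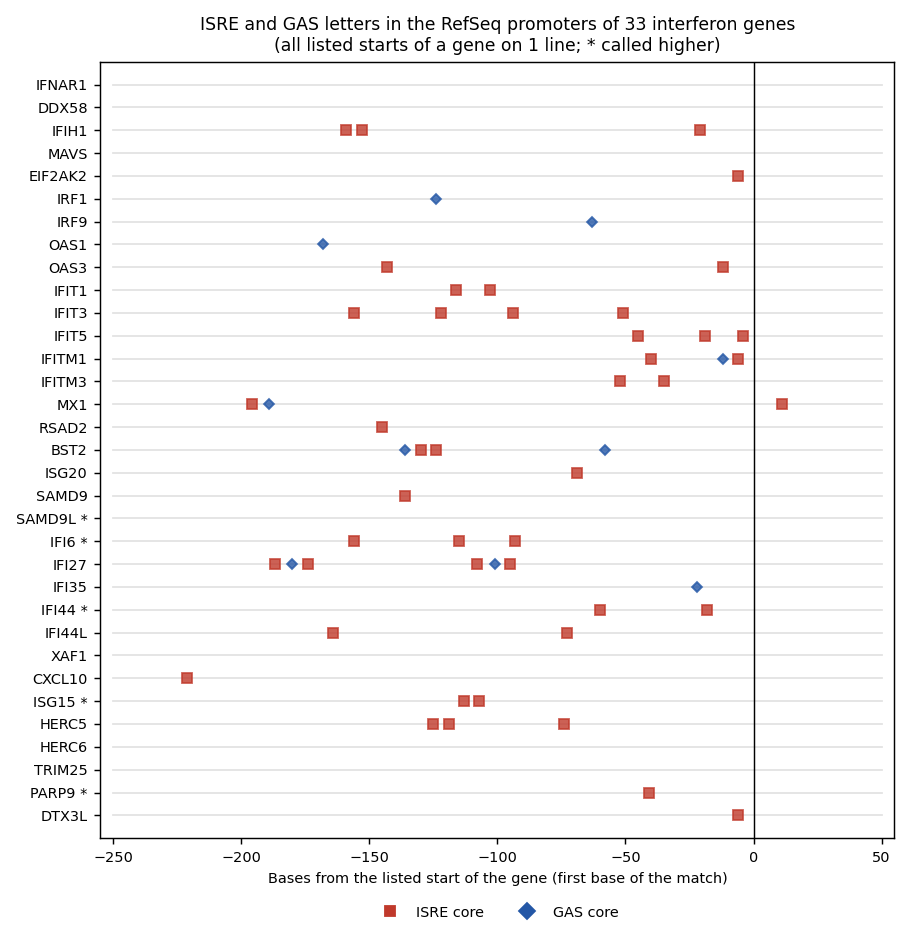
Position of ISRE cores (squares) and GAS cores (diamonds) in the RefSeq promoters of 33 interferon genes, in bases from the listed start, with all listed starts of a gene on one line and risen genes marked by an asterisk. ISRE cores appear in 22 genes and GAS cores in 8, and the risen gene SAMD9L has neither.

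Of the 2 receptor subunits, IFNAR2 fell and IFNAR1 was not called. IFNAR2, the subunit that binds interferon first with high affinity, was measured at 7.61, 7.70 and 7.48 FPKM in Ctrl replicates 1 to 3, and at 5.36, 5.43 and 5.25 FPKM in MIR21-KO replicates 1 to 3. All 3 MIR21-KO libraries lay under all Ctrl libraries, and replicates of a group differed little. IFNAR2 thus changed by -0.50 (SE 0.08, FDR 0.0036), from a mean of 7.60 ± 0.11 to 5.35 ± 0.0949 FPKM (SD, n = 3). The FDR was 0.022 without each Ctrl library in turn and without MIR21-KO replicate 2, with fold changes of -0.49 to -0.51. IFNAR1, its partner, was at 7.01 to 7.94 FPKM in Ctrl and 5.52 to 6.58 FPKM in MIR21-KO libraries, with no overlap and a fold change of -0.31 (FDR 0.057).

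Of the 6 genes of RNA and DNA sensing, 3 were tested and none was called by limma. At an unadjusted p under 0.05 there were 0, beside 3312 higher and 3598 lower of all 16006 tested genes. A further fit, referred to as voom from here on, used voom on recovered reads of genes with a mean of at least 10 reads. It called 1 of 5, TMEM173, which passed that filter only through its MIR21-KO reads. DDX58 encodes RIG-I, which detects RNA with a triphosphate end, and had means of 3.10 ± 0.26 and 3.06 ± 0.384 FPKM (SD, n = 3) in Ctrl and MIR21-KO cells. Its fold change of -0.02 (95% interval -0.33 to 0.30) turned to 0.11 with length and GC trends removed. MAVS, the mitochondrial adaptor of RIG-I and MDA5, was the most abundant of the sensing genes at 17.7 to 22.8 FPKM, and its groups overlapped (0.13, FDR 0.40). EIF2AK2, the kinase PKR that halts translation upon binding RNA duplexes, varied among MIR21-KO libraries from 6.95 in replicate 1 to 11.7 FPKM in replicate 3. Its fold change was -0.15 (FDR 0.60), 0.036 without MIR21-KO replicate 1 and 0.031 with the trends removed.

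IFIH1, DHX58 and TMEM173 lay below the filter. IFIH1 encodes the sensor MDA5 and had 12, 17 and 17 reads in Ctrl against 35, 22 and 34 in MIR21-KO libraries. TMEM173 encodes STING, the adaptor downstream of cGAS, with 11, 3 and 2 reads against 26, 19 and 21. In both genes every MIR21-KO library held more reads than every Ctrl library. DHX58, the regulator LGP2, stayed at 1 to 3 reads in all 6 libraries.

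Interferon regulatory factors (IRFs) are transcription factors that switch on interferons and their target genes. None of the 4 tested was called by limma, and 0 of 5 by voom. At an unadjusted p under 0.05, 2 of the 4 were higher, beside 3312 of all 16006 tested genes. With protein-coding genes alone, limma called IRF7 (FDR 0.0096). IRF7, the interferon-induced factor behind the second wave of interferon production, was at 0.329, 0.389 and 0.612 FPKM in Ctrl and 2.09, 0.995 and 0.939 FPKM in MIR21-KO libraries. The groups did not overlap, and MIR21-KO replicate 1 stood well above its partners. Its fold change was 1.35 (SE 0.38, FDR 0.034). IRF2, mostly a repressor that competes with IRF1, had no overlap between 4.95 to 5.62 FPKM in Ctrl and 6.63 to 6.88 FPKM in MIR21-KO cells (0.32, FDR 0.032). IRF1, an activator that also answers to interferon gamma, was at 4.09 to 5.19 and 5.28 to 6.17 FPKM (0.28, FDR 0.12). IRF3, the factor phosphorylated after RNA or DNA sensing, was the most abundant of the family at 19 to 27.4 FPKM, with overlapping groups (-0.22, FDR 0.24), and was called lower with length and GC trends removed (-0.32, FDR 0.0089). IRF9, the DNA-binding partner of STAT2, lay below the filter with 10, 14 and 16 reads in Ctrl and 38, 24 and 33 reads in MIR21-KO libraries.

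In the oligoadenylate synthetase family, OASL rose and OAS1 and OAS3 did not pass the test. OAS1, OAS2 and OAS3 make the messenger that activates RNase L, whereas OASL lacks this activity and acts on RIG-I. OASL was measured at 0.469, 0.714 and 0.541 FPKM in Ctrl and at 2.53, 2.86 and 2.67 FPKM in MIR21-KO libraries. The groups lay far apart, with 21 to 27 reads against 121 to 123 reads per library. OASL changed by 2.06 (SE 0.19, FDR 0.00057), a 4.67-fold ratio of mean FPKM, and the FDR was at most 0.0065 without any single library. OAS3 was at 11.5, 10.3 and 10.6 FPKM in Ctrl against 7.17, 8.03 and 8.87 FPKM in MIR21-KO libraries, where it was lower throughout but not called (-0.43, SE 0.10, FDR 0.020). OAS3 was called lower without MIR21-KO replicate 3 (FDR 0.0074), by voom (FDR 0.0087) and with the trends removed (FDR 0.0040). OAS1 overlapped between groups at 2.59 to 2.85 and 2.40 to 2.74 FPKM (-0.08, FDR 0.64). OAS2 had 0, 0 and 4 reads in Ctrl and 5, 7 and 2 in MIR21-KO libraries.

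IFIT1 binds viral RNA without the host's cap methylation, and the IFIT genes lie side by side on chromosome 10. The 4 IFIT genes all had fold changes above 0 but none was called by limma, and 1, IFIT3, was called by voom. At an unadjusted p under 0.05, 3 of the 4 were higher, beside 3312 of all 16006 tested genes. IFIT3 was at 1.99, 2.11 and 1.52 FPKM in Ctrl and 3.59, 4.36 and 3.04 FPKM in MIR21-KO libraries. No library overlapped, and the change of 0.93 (SE 0.19) missed the threshold at an FDR of 0.011. Its FDR was 0.0070 without MIR21-KO replicate 3, 0.0049 by voom, 0.0032 with protein-coding genes alone and 0.0050 with the trends removed. IFIT1 (0.69, FDR 0.068) and IFIT2 (0.72, FDR 0.066) were near the filter at 0.460 to 0.695 FPKM in Ctrl and 0.802 to 1.31 FPKM in MIR21-KO libraries. IFIT5, the most abundant at 4.70 to 7.55 FPKM, overlapped between groups (0.32, FDR 0.13).

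IFITM proteins sit in membranes and hinder the fusion of entering viruses. IFITM2 was measured at 21, 22.5 and 21.2 FPKM in Ctrl and at 47.3, 38.2 and 31.1 FPKM in MIR21-KO libraries. All MIR21-KO libraries were higher, and they differed among themselves, with replicate 1 on top, like the median of short genes. IFITM2 changed by 0.83 (SE 0.15, FDR 0.0072), and 0.69 (FDR 0.00028) with length and GC trends removed. The FDR of IFITM2 was 0.026 to 0.033 without Ctrl replicate 1, 2 or 3 or without MIR21-KO replicate 2. IFITM3 moved alike, from 6.0, 6.41 and 7.32 to 13.7, 11.1 and 9.09 FPKM, with an FDR outside the threshold (0.76, FDR 0.013). It was called without MIR21-KO replicate 3 (FDR 0.0037), by voom (FDR 0.0088) and with the trends removed (FDR 0.0018). IFITM1 had 4, 1 and 1 reads in Ctrl and 9, 16 and 11 reads in MIR21-KO libraries (2.03, SE 0.52, FDR 0.026), and was called with protein-coding genes alone (FDR 0.0029), as was IFITM3 (FDR 0.0044). The 3 IFITM genes are close copies of each other, the annotation of IFITM2 spans that of IFITM1, and the counting of shared reads is not given in the sources used here, so the split among them is uncertain.

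**Figure D2:**
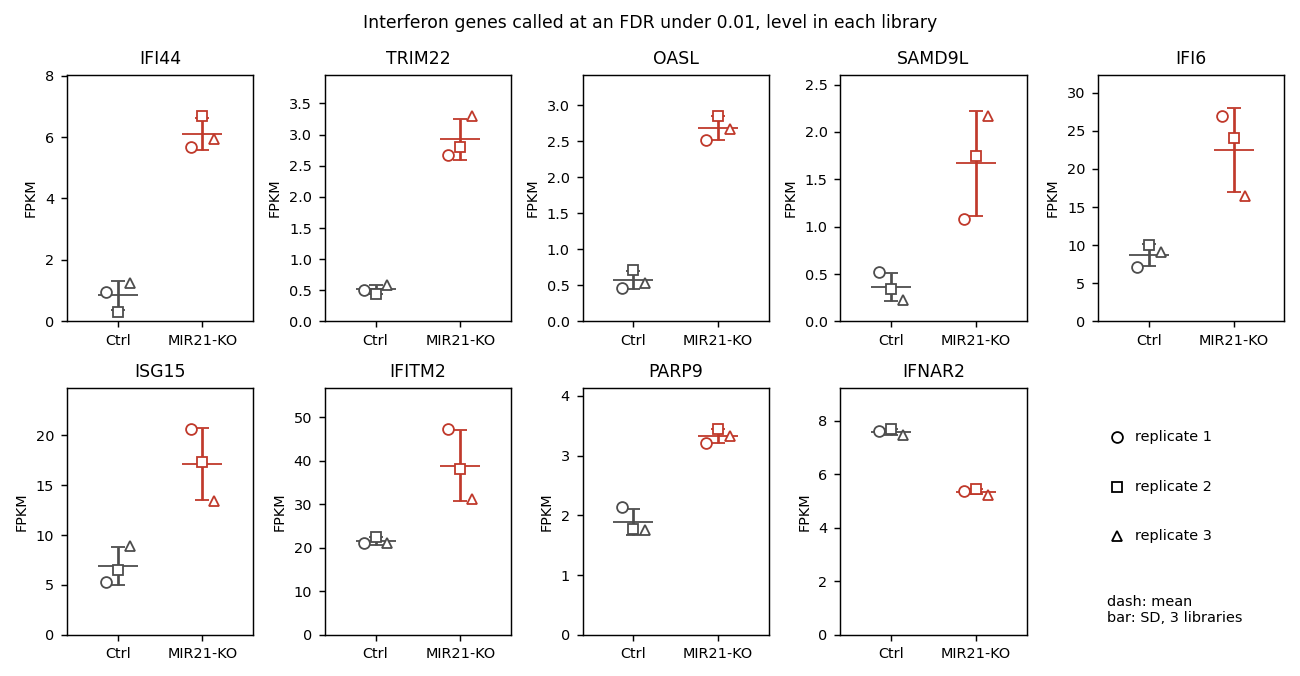
Level in FPKM of the 9 called interferon genes in each library, Ctrl in gray and MIR21-KO in red, with the mean (dash) and SD (bar) of 3 libraries; every axis starts at 0. The groups are apart in all 9 genes, from a ratio of mean FPKM of 7.22 for IFI44 to 0.704 for IFNAR2.

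Among direct antiviral effectors, TRIM22 and SAMD9L rose. TRIM22 restricts retroviruses and influenza virus, and was at 0.509, 0.448 and 0.583 FPKM in Ctrl and 2.67, 2.80 and 3.30 FPKM in MIR21-KO libraries. Every MIR21-KO library held at least 206 reads and every Ctrl library at most 48. Its fold change was 2.30 (SE 0.17, FDR 0.00028), the smallest FDR of the 32 tested genes, with an FDR of at most 0.0039 without any single library. SAMD9L restricts poxviruses and was at 0.517, 0.339 and 0.225 FPKM against 1.08, 1.75 and 2.17 FPKM. The groups were apart, but spread was large on both sides. With a Ctrl mean of 0.361 FPKM, SAMD9L passed the filter only through its MIR21-KO libraries. Its fold change was 1.94 (SE 0.36, FDR 0.0079), and it was not called without Ctrl replicate 1 (FDR 0.015), 2 (0.028) or 3 (0.026), nor without MIR21-KO replicate 2 (0.043) or 3 (0.021). Its neighbor and paralog SAMD9 overlapped between groups at 1.79 to 2.69 and 2.23 to 3.68 FPKM (0.39, FDR 0.23).

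The other effectors, MX1, MX2, RSAD2, BST2 and ISG20, lay below the filter. MX1, a GTPase that blocks influenza virus, had 14, 21 and 19 reads in Ctrl and 75, 59 and 45 reads in MIR21-KO libraries, a ratio of 3.17 per library size (95% exact interval 2.33 to 4.38). MX2, which acts on HIV, had 0, 3 and 0 reads against 17, 14 and 13. BST2, or tetherin, holds budding virus at the cell surface and had 2, 0 and 3 reads against 18, 11 and 9, a ratio of 7.27 (2.86 to 23.7). These 3 genes were above Ctrl in every MIR21-KO library. RSAD2 encodes viperin and had no read in Ctrl but 4, 2 and 3 reads in MIR21-KO libraries. This was 2.87-fold higher against a floor of 3 reads over the Ctrl group, with the MIR21-KO reads taken as exact. ISG20, an RNA exonuclease, showed no separation with 22 to 37 and 32 to 41 reads. Intervals cover counting error only, and the floor covers that of the Ctrl group only.

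IFI44 and IFI44L, neighbors on chromosome 1 with poorly defined antiviral roles, both had higher values in every MIR21-KO library. IFI44 was at 0.964, 0.319 and 1.26 FPKM in Ctrl and 5.69, 6.69 and 5.94 FPKM in MIR21-KO libraries. The Ctrl libraries differed widely, yet the highest was far under the lowest MIR21-KO library. The fold change was 2.87 (SE 0.42, FDR 0.0033), the largest among the 32 tested genes, with 2.95 (FDR 0.0020) after removal of the trends, and the FDR was 0.012 without Ctrl replicate 1 and 0.020 without MIR21-KO replicate 2. IFI44L had 12, 2 and 5 reads in Ctrl and 42, 51 and 49 reads in MIR21-KO libraries, a ratio of 7.15 (95% exact interval 4.41 to 12.2).

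IFI6 is a mitochondrial and endoplasmic reticulum protein that protects against cell death and flavivirus replication. It was at 7.08, 10.0 and 9.04 FPKM in Ctrl and at 27.0, 24.1 and 16.4 FPKM in MIR21-KO libraries. MIR21-KO replicate 3 was the lowest of its group and still above all Ctrl libraries. IFI6 changed by 1.34 (SE 0.21, FDR 0.0044), and 1.23 (FDR 0.00053) with length and GC trends removed. IFI6 was not called without Ctrl replicate 1 (FDR 0.018), 2 (0.013) or 3 (0.019), nor without MIR21-KO replicate 2 (0.024).

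The remaining interferon-induced genes showed less. IFI35, which forms a complex with NMI, overlapped between groups at 9.48 to 12.1 and 8.60 to 15.2 FPKM (0.23, FDR 0.47). IFI27, usually among the most inducible genes, had 3 to 9 reads in Ctrl and 5 to 9 reads in MIR21-KO libraries. XAF1, a proapoptotic factor, had no read in Ctrl and 5, 0 and 3 reads in MIR21-KO libraries. CXCL10, a chemokine that attracts T cells, was at 0 in all 6 libraries.

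**Figure D3:**
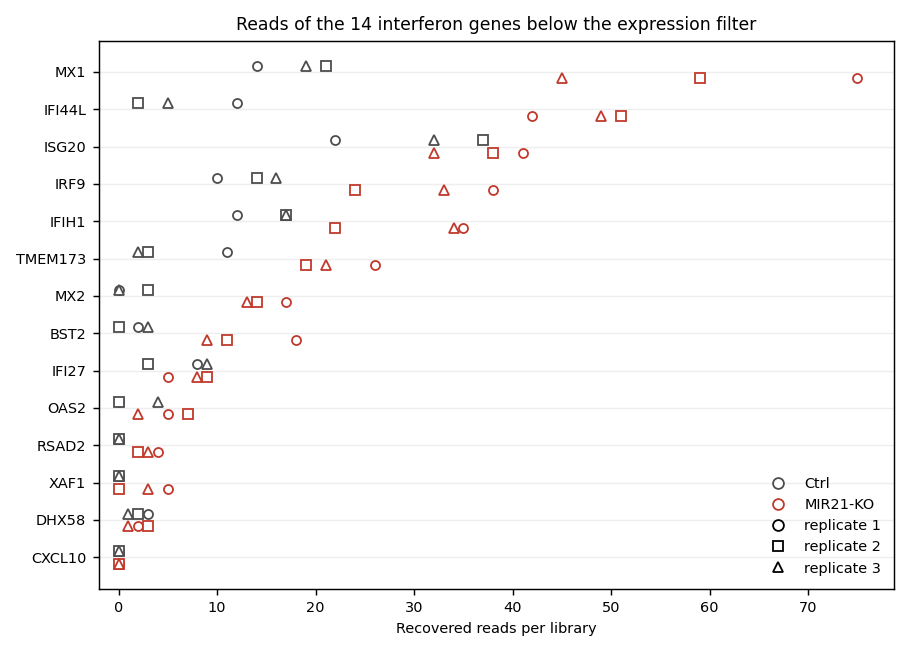
Recovered reads per library of the 14 interferon genes below the expression filter, Ctrl in gray and MIR21-KO in red, one marker shape per replicate number. In 8 genes every MIR21-KO library lies to the right of every Ctrl library, with MX1 reaching 75 and IFI44L 51 reads, and CXCL10 is at 0.

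Of the 14 genes below the filter, 8 had every MIR21-KO library above every Ctrl library, beside 9.67% of the 13378 genes with a read below the filter. Those genes were not matched to the 14 in read depth. They include genes with too few reads to place every MIR21-KO library above Ctrl, so the shares are not directly comparable. Voom, chosen after seeing the data, tested 37 interferon genes, 6 of these 14 among them. In this fit, MX1 (1.64, FDR 0.0026), IFI44L (2.99, FDR 0.00085) and TMEM173 (2.21, FDR 0.0078) were called higher, and IRF9 (1.16, FDR 0.015), IFIH1 (0.90, FDR 0.044) and ISG20 (0.26, FDR 0.50) were not. IFI44L had 12, 2 and 5 reads in Ctrl and TMEM173 had 11, 3 and 2. In this fit and the next, both passed the filter of 10 reads only through their higher MIR21-KO reads. The counts of both fits include them. Limma on log2 FPKM of genes with at least 10 reads called MX1 (1.22, FDR 0.0055) and IFI44L (1.65, FDR 0.0017) but not TMEM173 (1.45, FDR 0.010). Voom called 13 of the 37 genes higher and 2 lower, beside 11.9% and 12.1% of 15795 genes.

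ISG15 is a ubiquitin-like protein that is attached to other proteins by HERC5 and removed by USP18. ISG15 was measured at 5.25, 6.51 and 8.93 FPKM in Ctrl and 20.6, 17.3 and 13.4 FPKM in MIR21-KO libraries. The groups were apart, with Ctrl replicate 3 and MIR21-KO replicate 3 nearest to each other. The fold change was 1.31 (SE 0.23, FDR 0.0063), a 2.48-fold ratio of mean FPKM, and 1.15 (FDR 0.0020) with length and GC trends removed. It was not called without Ctrl replicate 1 (FDR 0.022) or 2 (0.027), nor without MIR21-KO replicate 1 (0.014) or 2 (0.031).

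None of 4 further genes of this system and its relatives was called by limma, and 0 by voom. USP18 and TRIM25 were lower at an unadjusted p under 0.05, beside 3598 of all 16006 tested genes. USP18, which also blocks IFNAR2 signaling, was at 4.21, 3.10 and 4.29 FPKM in Ctrl against 2.83, 2.69 and 2.06 FPKM in MIR21-KO libraries. It lay lower in every MIR21-KO library but was not called (-0.59, SE 0.18, FDR 0.046). HERC5, the ISG15 ligase, overlapped at 2.01 to 2.75 and 1.94 to 2.33 FPKM (-0.14, FDR 0.52), and its relative HERC6 was at 1.75 to 2.11 and 2.23 to 2.44 FPKM (0.27, FDR 0.15). TRIM25, the ubiquitin ligase of RIG-I, was at 21.8 to 24.2 and 16.5 to 19.8 FPKM without overlap (-0.30, FDR 0.050).

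PARP9 and the ubiquitin ligase DTX3L act as a complex and, as shown above, share a promoter region. PARP9 was at 2.14, 1.77 and 1.76 FPKM in Ctrl and 3.22, 3.45 and 3.32 FPKM in MIR21-KO libraries. Replicates were tight and the groups well apart. The fold change was 0.79 (SE 0.13, FDR 0.0045). PARP9 was not called without Ctrl replicate 1 (FDR 0.010), 2 (0.022) or 3 (0.024), nor without MIR21-KO replicate 1 (0.011) or 2 (0.029). DTX3L was at 6.4, 5.40 and 6.57 against 7.67, 8.69 and 9.67 FPKM, higher in every MIR21-KO library but not called (0.49, SE 0.12, FDR 0.023), and called with the trends removed (FDR 0.0030). Their annotated ends overlap on opposite strands, and whether strand was used in counting is not given in the sources used here.

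**Figure D4:**
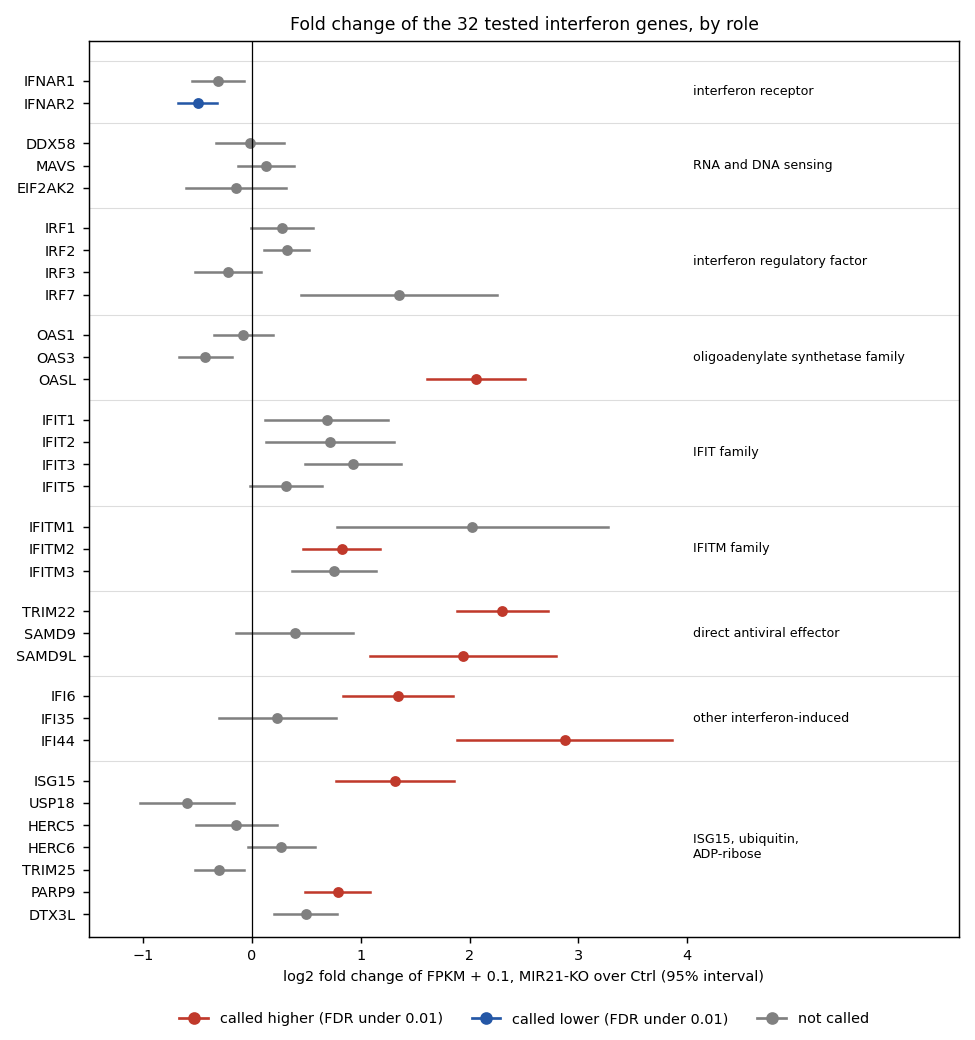
Log2 fold change (points) and 95% interval (lines) of the 32 tested interferon genes, MIR21-KO over Ctrl, grouped by role, with called genes in color. The 8 risen genes range from 0.79 (PARP9) to 2.87 (IFI44), IFNAR2 is at -0.50, and the intervals of OAS1, DDX58, MAVS and EIF2AK2 span 0.

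Leaving out single libraries changed the number of calls among all genes and among the 46 alike. Without Ctrl replicate 1, 2 or 3, 2, 3 and 4 interferon genes were called higher, beside 3.25%, 3.29% and 3.19% of all tested genes, and 0 were called lower, beside 2.47%, 2.52% and 2.36%. Without MIR21-KO replicate 1, 2 or 3, the numbers were 6, 2 and 9, beside 6.02%, 2.46% and 10.1%, and 1, 0 and 2 were called lower, beside 7.69%, 2.46% and 11.4%. OASL and TRIM22 were called in each of these 6 fits. With length and GC trends removed, all 9 calls were kept, IFIT3, IFITM3 and DTX3L joined as higher and IRF3 and OAS3 as lower, beside 11.5% and 13.4% of genes.

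As miR-21-5p is the RNA removed from these cells, the longest annotated 3′ UTR of each gene (GENCODE 29) was searched for matches to its seed (bases 2 to 8, in capitals). The mature sequence is given with the sites of OASL, SAMD9, TRIM25 and RSAD2, which pair with the whole seed, site letters in capitals.
miR-21-5p: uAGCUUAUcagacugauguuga
OASL: cccaagaaacccaaATAAGCTccccag
SAMD9: gagaagttagtgtaATAAGCTggctac
TRIM25: tttaagccaattatATAAGCTcacatt
RSAD2: agtgaaataaaactATAAGCTAtgttaa
Of the 46 genes, 7 held a site of 7 or 8 bases and 5 a site of 6 bases. Among tested genes with a 3′ UTR, 15.1% of 11659 held a site of 7 or 8 bases. Of the 9 called interferon genes, OASL alone held a site, and the other 8 had none in this UTR, where 70.6% of the 11659 genes had none. Of the 5 tested genes with a site of 7 or 8 bases, OASL rose (2.06), and DTX3L (0.49), SAMD9 (0.39), MAVS (0.13) and TRIM25 (-0.30) were not called. Their median fold change was 0.39, and that of the 22 tested genes without a site was 0.72. Over the 11659 genes, the median was -0.03 without a site. It was -0.09 and -0.04 for the 2 kinds of 7-base site and 0.0001 for the 8-base site. Whether any site acts in these cells was not tested.

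The response was also followed in 64 further interferon-stimulated genes, of which 45 were tested, 14 rose and 2 fell. The genes that rose and fell were 31.1% and 4.44% of the 45, beside 7.66% and 8.38% of all tested genes. The median fold change of the 45 genes was 0.45. IFI16, a nuclear DNA sensor, rose from 2.08, 1.72 and 1.99 to 11, 10.8 and 10.2 FPKM (2.41, SE 0.10, FDR 4.4e-05). GBP1, a guanylate-binding protein that attacks vacuoles of pathogens, rose from a mean of 0.666 to 4.54 FPKM (2.59, FDR 0.00016), and its relative GBP3 rose as well (1.51, FDR 0.0015). STAT2, the partner of IRF9 in the complex that binds ISRE, was at 3.66, 3.41 and 3.83 FPKM in Ctrl and 9.08, 10.1 and 9.04 FPKM in MIR21-KO libraries (1.35, SE 0.09, FDR 0.00020). UBE2L6, the conjugating enzyme for ISG15, rose from a mean of 12.9 to 26.1 FPKM (1.0, FDR 0.00066). APOL1 (1.27, FDR 0.0015) and the MHC class I activator NLRC5 (1.23, FDR 0.0019) rose too. Without MIR21-KO replicate 2, APOL1 and GBP3 were not called (each FDR 0.010). CD38, an NAD hydrolase, fell from a mean of 4.21 to 2.1 FPKM (-0.97, FDR 0.0019).

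Ligands and signaling components were followed as well. Of 47 such genes, 33 were tested, 2 rose (6.06%, beside 7.66% of all tested genes) and 1 fell (3.03%, beside 8.38%), with a median fold change of -0.01. IFNE, a type I interferon made constitutively by epithelia, was at 2.29, 3.09 and 3.42 FPKM in Ctrl and 6.87, 6.70 and 8.15 FPKM in MIR21-KO libraries (1.29, SE 0.17, FDR 0.0022). IFNE was not called without Ctrl replicate 2 (FDR 0.010) or MIR21-KO replicate 2 (0.012). IFNB1, IFNA2, IFNK, IFNW1, IFNG and the 3 lambda interferons IFNL1, IFNL2 and IFNL3 had no read in any library, and IFNA1 had 1, 0 and 1 reads against 7, 4 and 3 (ligands beyond IFNE were named after their values were seen). TNFAIP3, an inhibitor of NF-kappaB, rose from a mean of 5.95 to 11.5 FPKM (0.94, FDR 0.0019). It was not called without Ctrl replicate 1 (FDR 0.012) or 3 (0.011) or without MIR21-KO replicate 2 (0.013). MB21D1, the DNA sensor cGAS, fell from a mean of 5.12 to 2.91 FPKM (-0.79, FDR 0.0026), and was not called without Ctrl replicate 1, 2 or 3 (each 0.013) or MIR21-KO replicate 2 (0.015). Without the same library, NLRC5 (0.016) and CD38 (0.011) were not called either, nor NLRC5 without Ctrl replicate 1 or 3 (each 0.011), nor CD38 without Ctrl replicate 1 (0.012), 2 (0.010) or 3 (0.014).

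**Figure D5:**
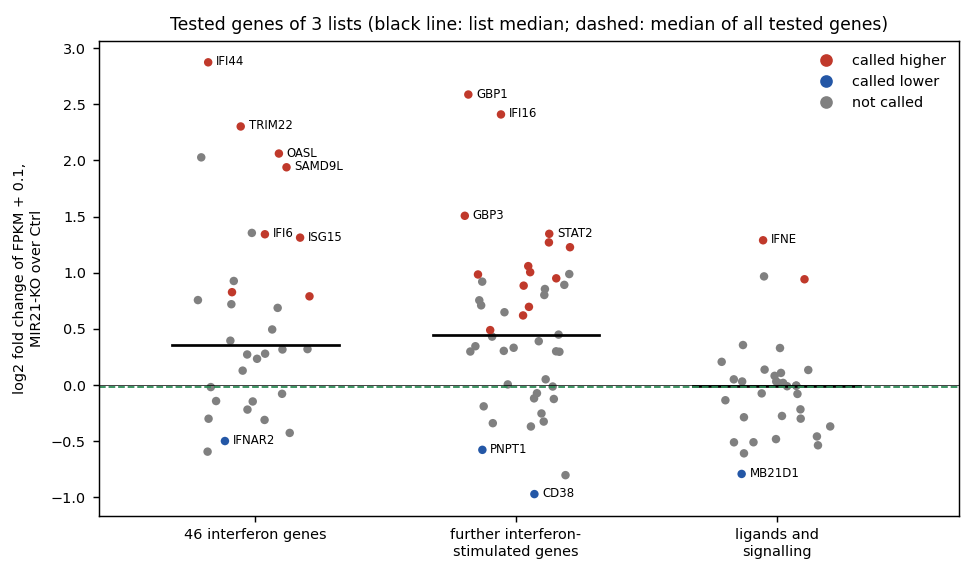
Log2 fold change of the tested genes of 3 lists (32 of the 46 interferon genes, 45 further interferon-stimulated genes, 33 ligands and signaling genes), with called genes in color, list medians as black lines and the median of all tested genes dashed. Medians are 0.36, 0.45 and -0.01, beside -0.02 over all tested genes, and called genes lie mostly above 0 in the first 2 lists.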

How the data were processed

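PolyA RNA-seq data of 3 Ctrl and 3 MIR21-KO libraries of A549 cells were analyzed, with groups and replicate numbers taken from the sample titles. Whether replicates came from separate cultures is not stated, so p-values measure the spread between these libraries. The authors deposited one table of FPKM values per gene and library with gene lengths, beside their own log2 fold changes, p-values and FDRs, which were not used. The submitters' processing notes name cutadapt 1.14, HISAT2 2.1.0, SAMtools 1.5, featureCounts 1.5.3, edgeR 3.18.1 and build hg38. All 37 mitochondrial genes are listed at 0, so a listed 0 can stem from the processing.

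Log2(FPKM + 0.1) was tested for genes whose mean reached 0.5 FPKM by limma 3.58.1 in R 4.3.3 (eBayes with trend and robust fitting, two-sided, no covariate), tested on simulated data beforehand. Calls were made at an FDR under 0.01, the threshold used in the study. Reads were recovered from FPKM steps for voom. Library trends on gene length and on GC content of the longest GENCODE 29 transcript (found for 15955 of 16006 genes) were removed by lowess. The members and lists were chosen with earlier results of these data known. All members were named, and of the further lists the called genes, up to 8 with the smallest p. Python 3.11.15 and matplotlib 3.10.9 drew the figures. Gene coordinates followed GENCODE 29 (GRCh38), which held 57836 of 58174 identifiers.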

Additional observations from a re-analysis of the deposited data

How the results depend on the processing

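Direction and call of each interferon gene were unchanged with a pseudocount of 1 or 0.01 and with median-ratio scaling. Of the 9 calls, 5 were shared without a filter on low values and 5 without trend or robust fitting (4 called higher in each), where IFI6, IFITM2, ISG15 and SAMD9L were lost. At an FDR under 0.05, 14 were called higher and 3 lower, beside 15.2% and 16.8% of all tested genes. There were then 5114 calls over all genes, 31 in the further list and 10 in the signaling list. Voom on recovered reads gave 10 called higher, 2 lower and 5 signaling genes, with 3496 calls over all genes, beside 2568 in the main fit. With at least 10 reads, voom called 13 higher and 2 lower, beside 11.9% and 12.1% of all genes in that fit. It called 25 of the further list and 5 of the signaling list. Removal of length and GC trends gave 3976 calls in all, 3 interferon genes lower and 7 signaling genes. Protein-coding genes alone gave 3253 calls in all, with 12 interferon genes called higher (IFIT3, IFITM1, IFITM3 and IRF7 gained), 22 of the further list and 5 signaling genes. Limma with at least 10 reads called 12 higher (IFI44L, IFIT3, IFITM3 and MX1 gained), with 3245 calls over all genes. IFI44L passed that filter only through its MIR21-KO reads.

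Leaving out one library gave 784 to 3418 calls over all genes, 2 to 9 interferon genes called higher and 0 to 2 called lower by limma, 4 to 17 of the further list and 0 to 6 of the signaling list. DDX58 ranged from -0.12 to 0.033 and EIF2AK2 from -0.34 to 0.036 in these fits, and without trends they were at 0.11 and 0.031. The cause of these shifts was not tested, beyond the smaller number of libraries.

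Same-numbered libraries did not deviate together (correlations of -0.17, -0.02 and -0.02), and libraries of unlike number reached 0.16. Deviations were taken from means of 3 libraries and include the length trend given above. They therefore cannot decide whether the numbers pair the libraries. With the replicate number as a block, limma called 651 genes over all, 2 interferon genes higher (OASL and TRIM22) and 0 lower. It called 6 of the further list and 2 of the signaling list. In this fit 3 interferon genes were lower at an unadjusted p under 0.05, beside 3035 over all tested genes. Voom without the block called 2 interferon genes lower. Voom with at least 10 reads and the removal of trends were chosen after seeing the data. With 3 libraries per group and under 20 reads per library for several members, small changes were not detectable.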
